A study of Mus musculus with 4 samples.

Results

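The miR-17~92 cluster is a run of 6 microRNA (miRNA) hairpins on mouse chromosome 14 that are cut from a common host transcript, Mir17hg. Its members here were the 9 rows of the deposited table, of 847 in all, that carry the name of a mature arm of these hairpins. They are mmu-miR-17-5p, mmu-miR-17-3p, mmu-miR-18a-5p, mmu-miR-18a-3p, mmu-miR-19a-3p, mmu-miR-19b-3p, mmu-miR-20a-5p, mmu-miR-92a-3p and mmu-miR-92a-1-5p, written below without the species prefix. The rule used names only, and all 9 rows were found.

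A miRNA hairpin gives a 5p and a 3p arm, and the arm that is loaded into an Argonaute protein represses messenger RNAs that pair with its seed, bases 2 to 8. The cluster is a direct target of the transcription factor MYC and is high in dividing haematopoietic progenitors and lymphocytes, and its miR-17 arms repress the death-promoting gene Bcl2l11. In the monocyte and macrophage lineage, miR-17-5p and miR-20a-5p are known to repress the transcription factor Runx1, which promotes expression of the macrophage growth factor receptor Csf1r.

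Small RNA was sequenced from macrophages of C57BL/6J mice aged 6 to 8 weeks, sorted from the bone marrow (BM in the labels) or the spleen. The libraries called normal marrow and normal spleen here are those whose titles say normal. The protocol speaks instead of leukaemia mice sampled at day 0, so whether these mice had been transplanted is not settled by the labels. Mice that had received GFP+ MLL-AF9 acute myeloid leukaemia (AML) cells, with no irradiation, gave the leukaemic marrow and leukaemic spleen libraries 18 days later. MLL-AF9 is a fusion oncogene of myeloid leukaemia, and the labels give these mice a survival of 35 to 40 days. The labels give neither the sort markers, nor the number of mice per library, nor whether marrow and spleen came from the same mice, and the host mice kept their own haematopoietic cells. There was 1 library per group, so the values describe these 4 libraries and carry no measure of the variation between mice.

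The libraries held between 180227 counts (leukaemic spleen) and 435492 counts (normal spleen). Levels are counts per 1000000 reads (CPM) after scaling with TMM factors, and brackets after a log2 ratio hold its 95% exact conditional interval, which covers counting error only. A member was compared where the larger of its counts was at least 30, and called different where the ratio was at least 2-fold and the interval excluded equality. A member can pass this minimum through its higher library alone, so counts and medians over the members compared are descriptions only. In such bulk samples, fewer cells of a type and less RNA per cell cannot be told apart.

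The mature sequences, from RefSeq with GRCm38.p6 coordinates, show which members share a seed, here in capitals, and so which should pair with the same messenger RNAs. All 9 members were matched. The build behind the deposited table is not given in the sources used. The miR-17 seed is held by miR-17-5p and miR-20a-5p, which differ by C1U and C12U, counted from the 5′ end of miR-17-5p.
miR-17-5p: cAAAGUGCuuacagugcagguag
miR-20a-5p: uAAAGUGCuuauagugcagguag
The arm miR-18a-5p differs from miR-20a-5p by 4 bases, one of them, G4A, within the seed.
miR-18a-5p: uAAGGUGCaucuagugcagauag
The miR-19 arms share a seed and differ by U11C.
miR-19a-3p: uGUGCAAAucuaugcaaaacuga
miR-19b-3p: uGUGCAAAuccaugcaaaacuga
The most abundant member has the miR-92 seed.
miR-92a-3p: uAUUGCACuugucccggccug
The opposite arms of 3 hairpins each have a seed that no other member holds.
miR-17-3p: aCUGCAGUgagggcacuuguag
miR-18a-3p: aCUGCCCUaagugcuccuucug
miR-92a-1-5p: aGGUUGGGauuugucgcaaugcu

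On chromosome 14 the members lie on the plus strand between 115043684 (the first base of miR-17-5p) and 115044496 (the last base of miR-92a-3p), a span of 813 bases. All of them fall in exon 2 of Mir17hg (115043271 to 115046727, GENCODE M21 on GRCm38), a long non-coding RNA. The sequences of miR-92a-3p and miR-19b-3p also occur on chromosome X, in the paralogous miR-106a cluster, at 52741854 to 52741874 and at 52741991 to 52742013. The counts of these members therefore cannot be assigned to a locus. The other 7 members are listed at chromosome 14 only. How reads that match both loci, or that match miR-17-5p and miR-20a-5p about equally well, were counted is not given in the sources used here, and dividing, discarding or reassigning them would change these counts and ratios. No row of the table matched the counts of any of the 6 members with at least 100 counts in all within 3% or 2 counts in every library.

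The members held 7.68% of the reads of normal marrow, 15.1% of normal spleen, 10.1% of leukaemic marrow and 6.59% of leukaemic spleen. Nearly all of these reads were miR-92a-3p, which had 15556 counts in normal marrow, 65229 in normal spleen, 26906 in leukaemic marrow and 11737 in leukaemic spleen. Its share of the members' reads lay between 98.1% (normal marrow) and 99.1% (normal spleen). It was the most abundant miRNA of normal spleen and of leukaemic marrow, the second of normal marrow and the third of leukaemic spleen.

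The 8 other members summed to 306 counts in normal marrow, 593 in normal spleen, 403 in leukaemic marrow and 136 in leukaemic spleen, or 1476, 1512, 1437 and 705 CPM. Their sum thus lay within a narrow range in the first 3 libraries and was lower in leukaemic spleen. Among them miR-20a-5p had the most reads in normal marrow (141) and miR-17-5p in the other libraries. In normal spleen miR-17-3p (128 counts) and miR-18a-3p (94) stood beside miR-20a-5p (93). The arms miR-19a-3p and miR-19b-3p had between 0 and 25 counts in any library, and miR-18a-5p had 5 counts in normal spleen and 0 in the other 3. At 3 counts, the limit that a count of 0 allows, levels would be 14.5 CPM in normal marrow, 10.7 CPM in leukaemic marrow and 15.5 CPM in leukaemic spleen, so the 12.8 CPM of miR-18a-5p in normal spleen does not separate these libraries. Mature members are 21 to 23 bases long, and levels of different members are compared as reads with no length term. Their GC content lay between 34.8% (miR-19a-3p) and 57.1% (miR-92a-3p), with 39.1% for miR-20a-5p and 47.8% for miR-92a-1-5p. Its part in the levels and ratios was not tested.

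**Figure D1:**
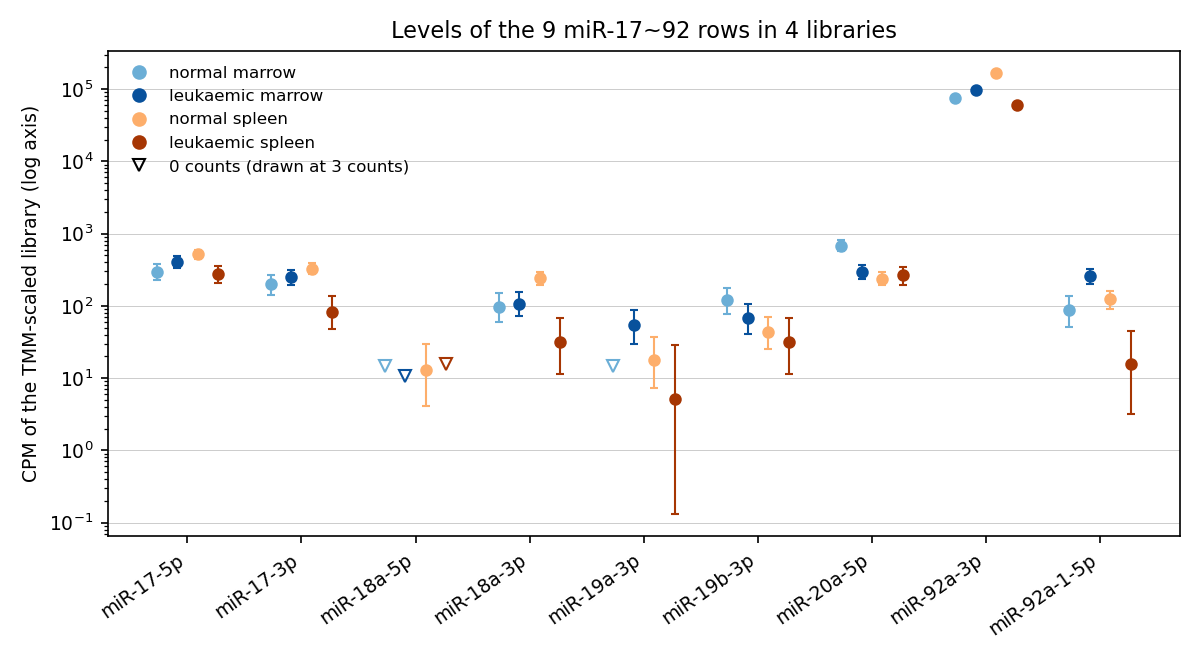
CPM of each member (log axis) in the 4 libraries, with 95% exact Poisson intervals from the counts; open triangles mark 0 counts, drawn at the level of 3 counts. The level of miR-92a-3p lies between 60833 and 166362 CPM, and no other member exceeds 680 CPM.

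Macrophages of leukaemic marrow had more miR-92a-1-5p and less miR-20a-5p than those of normal marrow, so the members differed in both directions. Of 9 members 6 were compared, of which 1 was higher, 1 was lower and 4 were neither. Among all 216 miRNAs compared, 13.4% were at least 2-fold higher and 12% lower, 25.5% in all, so the members were called about as often as other miRNAs. The members' median log2 ratio was 0.35, against 0.00 for all miRNAs compared.

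The arm miR-92a-1-5p, opposite miR-92a-3p on its hairpin, had 72 counts in leukaemic marrow and 18 in normal marrow, or 257 and 86.8 CPM. This was a log2 ratio of 1.56 [0.80 to 2.40], and the member passed the minimum through leukaemic marrow alone. In contrast miR-20a-5p, of the miR-17 seed, had 83 counts in leukaemic marrow and 141 in normal marrow, or 296 and 680 CPM, a log2 ratio of -1.20 [-1.61 to -0.80]. These members were thus on opposite sides although both derive from the same transcript.

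The other compared members leaned slightly to the leukaemic side. For miR-92a-3p the levels were 95954 CPM in leukaemic marrow and 75014 CPM in normal marrow, a log2 ratio of 0.36 [0.33 to 0.38], a small difference whose interval is narrow because of the depth. With 114 and 61 counts, miR-17-5p had a log2 ratio of 0.47 [0.01 to 0.94]. For miR-17-3p (70 and 41 counts) and miR-18a-3p (30 and 20) the ratios were 0.34 and 0.15, with intervals that include 0.

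Below the minimum, miR-19a-3p had 15 counts in leukaemic marrow and 0 in normal marrow. With 3 counts entered for the 0 this was 3.70-fold higher, a log2 ratio of 1.89, and the exact interval began lower, at 1.41. For miR-19b-3p there were 19 and 25 counts. The 8 members without miR-92a-3p, summed, had a log2 ratio of -0.04 [-0.26 to 0.18], with no difference beyond counting error.

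Macrophages of leukaemic spleen had less of most compared members than those of normal spleen. Of 6 compared, miR-92a-3p, miR-17-3p, miR-18a-3p and miR-92a-1-5p were at least 2-fold lower, none was higher and 2 were neither. Of these 4, all but miR-92a-3p passed the minimum of 30 counts through normal spleen alone, the deepest library and the one where they were high. With no minimum the same count of 4 was lower, and with a minimum of 100 counts 2. Among all 216 miRNAs compared, 21.3% were lower, and 46.3% differed in either direction. The members' median log2 ratio was -1.71, against -0.25 over all miRNAs compared.

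The most abundant member, miR-92a-3p, stood at 166362 CPM in normal spleen and 60833 CPM in leukaemic spleen, and its log2 ratio was -1.45 [-1.48 to -1.42]. The 3 opposite arms were lower too. With 16 counts in leukaemic spleen and 128 in normal spleen, miR-17-3p had a log2 ratio of -1.98 [-2.83 to -1.22]. For miR-18a-3p they were 6 and 94, a log2 ratio of -2.95 [-4.43 to -1.77]. For miR-92a-1-5p they were 3 and 48, a log2 ratio of -2.98 [-5.30 to -1.34].

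Neither arm with the miR-17 seed was called. With 53 counts in leukaemic spleen and 201 in normal spleen, miR-17-5p had a log2 ratio of -0.90 [-1.37 to -0.46], which passed 2-fold at -1.14 with DESeq2 size factors. For miR-20a-5p the counts were 51 and 93 and the log2 ratio 0.16 [-0.37 to 0.66], an interval that includes equality. The sparse miR-19a-3p (1 and 7 counts) and miR-19b-3p (6 and 17) were not compared. Summed, the 8 members without miR-92a-3p had a log2 ratio of -1.10 [-1.38 to -0.83].

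**Figure D2:**
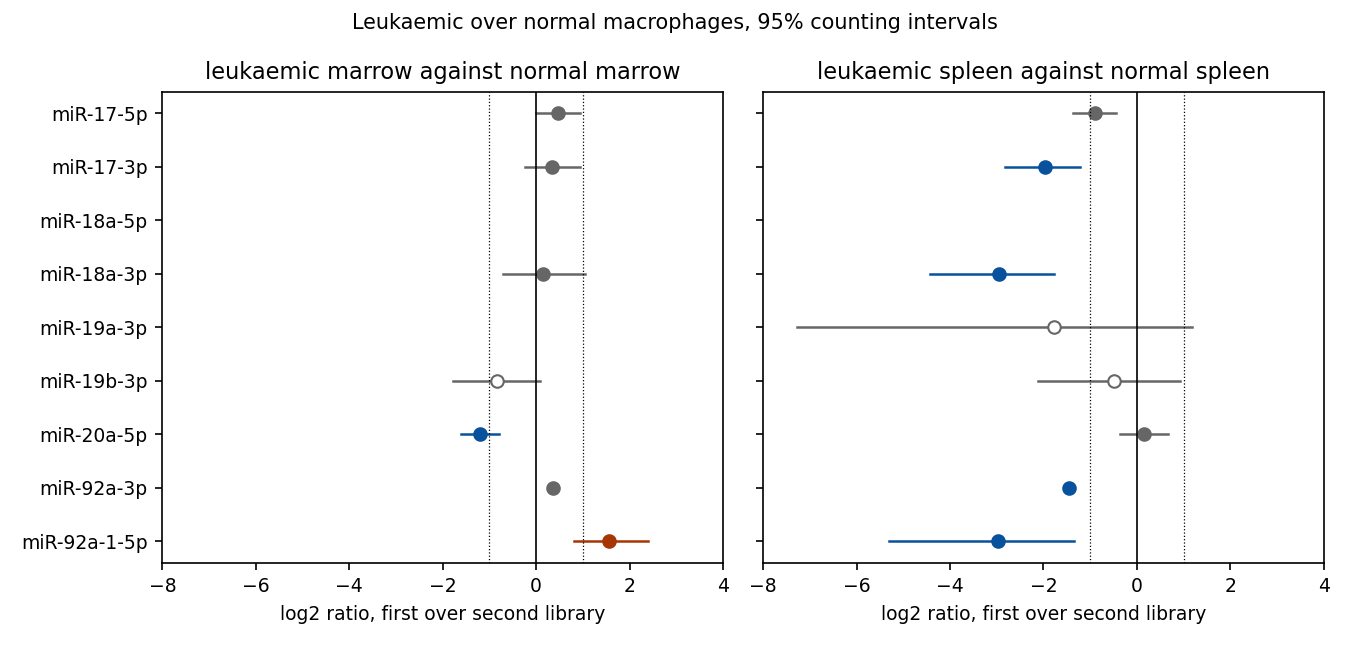
log2 ratio of each member in leukaemic (AML) over normal macrophages of the marrow (left) and the spleen (right), with 95% exact intervals; dotted lines mark 2-fold, filled points were compared (red higher, blue lower, grey neither), open points had fewer than 30 counts, and members at 0 in a library are not drawn. In the spleen 4 compared members lie to the left of the 2-fold line, as does the open point of miR-19a-3p (1 and 7 counts). In the marrow miR-20a-5p lies to the left and miR-92a-1-5p to the right.

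The AML ratio thus differed between the tissues, in a direction that depended on the member. The log2 ratio of the spleen minus that of the marrow was -1.81 for miR-92a-3p (95% Wald interval -1.85 to -1.77), -1.37 for miR-17-5p (-1.99 to -0.74) and -2.31 for miR-17-3p (-3.25 to -1.38). For miR-20a-5p it was 1.36 (0.73 to 1.99), with the opposite sign. For miR-92a-1-5p it was -4.54, with no interval because leukaemic spleen had 3 counts. With 1 library per group these gaps have no test, and whether they exceed the variation between mice is unknown.

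In the normal libraries the members also differed between the tissues in both directions. The normal libraries enter the AML comparisons too, so these values are not independent of those above. Of 6 members compared, miR-92a-3p and miR-18a-3p were higher in normal spleen than in normal marrow and miR-20a-5p was lower. Among all 234 miRNAs compared, 30.8% were higher, 35.5% were lower and 66.2% differed in either direction. On TMM factors the members were thus called no more often than other miRNAs. For miR-92a-3p the log2 ratio was 1.15 [1.12 to 1.17], which was 0.99 and under 2-fold on total counts. For miR-18a-3p (94 and 20 counts) it was 1.31 [0.61 to 2.09], and for miR-20a-5p (93 and 141 counts) -1.52 [-1.91 to -1.13]. The remaining members compared were miR-17-5p at 0.80 [0.38 to 1.24], miR-17-3p at 0.72 [0.21 to 1.27] and miR-92a-1-5p at 0.50 [-0.31 to 1.37]. Scaled by DESeq2 instead, miR-17-5p was past 2-fold at 1.04. The number of members called thus depended on the scaling, with 2 higher on TMM factors, 3 with DESeq2 size factors and 1 on total counts.

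Between the leukaemic libraries, 3 of 6 members compared were lower in the spleen than in the marrow and none was higher, against 21.3% lower among all 211 miRNAs compared. These were the opposite arms, each of which passed the minimum through leukaemic marrow alone, and with a minimum of 100 counts 0 were called. Of them miR-17-3p had -1.59 [-2.47 to -0.79], miR-18a-3p -1.78 [-3.34 to -0.49] and miR-92a-1-5p -4.05 [-6.36 to -2.44] on the log2 scale. For miR-92a-3p the ratio was -0.66 [-0.69 to -0.63], for miR-17-5p -0.57 [-1.06 to -0.08] and for miR-20a-5p -0.16 [-0.70 to 0.36].

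Ordered by level on TMM factors, the libraries ranked normal spleen, leukaemic marrow, normal marrow, leukaemic spleen for miR-92a-3p. Every neighbouring pair differed beyond counting error. The same order held for miR-17-5p, miR-17-3p and miR-18a-3p, but not all of its steps were resolved. For miR-17-5p only the step from leukaemic marrow to normal marrow had an interval without 0, and for miR-17-3p only the step from normal marrow to leukaemic spleen. For miR-18a-3p the step from leukaemic marrow to normal marrow was the unresolved one. For miR-20a-5p normal marrow was highest, and the other 3 libraries, between 237 and 296 CPM, could not be told apart from their neighbours. For miR-92a-1-5p leukaemic marrow was highest and leukaemic spleen lowest, with normal spleen and normal marrow between them and not resolved. For miR-19b-3p no neighbouring pair was resolved. The step of miR-92a-3p from normal marrow to leukaemic spleen, at log2 0.30 [0.27 to 0.34], depends on the scaling. Without the 10 most abundant miRNAs the totals were 116240 in normal marrow and 89849 in leukaemic spleen. On those totals its 15556 and 11737 counts would give nearly equal levels.

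Ratios of 2 members within a library do not depend on the scaling, and they describe how the reads were divided between these members. Processing, stability and recovery of each sequence were not measured and cannot be told apart here. For the miR-17 hairpin the 5p arm had 1.49 reads for each 3p read in normal marrow, 1.57 in normal spleen and 1.63 in leukaemic marrow, but 3.31 [1.86 to 6.21] in leukaemic spleen. From normal to leukaemic spleen this balance shifted toward the 5p arm by 1.08 on the log2 scale (95% Wald interval 0.21 to 1.94), and between the marrow libraries by 0.13 (-0.58 to 0.84).

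For the miR-18a hairpin the reads were on the other arm. The 3p arm, usually the minor product, had 20, 94, 30 and 6 counts in normal marrow, normal spleen, leukaemic marrow and leukaemic spleen, and the 5p arm 0, 5, 0 and 0. In normal spleen, where both were seen, the 3p arm had 18.8 times the reads of the 5p arm. The 5p arm is the one with a seed close to that of miR-17-5p.

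For the miR-92a-1 hairpin, miR-92a-3p exceeded miR-92a-1-5p by a factor of 864 [547 to 1459] in normal marrow, 1359 [1025 to 1843] in normal spleen, 374 [297 to 478] in leukaemic marrow and 3912 [1338 to 18974] in leukaemic spleen. The marrow libraries differed in this balance by -1.21 on the log2 scale (-1.96 to -0.46), toward the 5p arm in leukaemia. These factors can hold reads of miR-92a-3p from chromosome X as well.

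Since miR-17-5p and miR-20a-5p share a seed, their balance says which of the pair held more of its reads. In normal marrow there were 61 counts of miR-17-5p to 141 of miR-20a-5p, a ratio of 0.433 [0.315 to 0.588]. In normal spleen there were 201 to 93, a ratio of 2.16 [1.68 to 2.79]. The leukaemic libraries lay between, at 1.37 [1.03 to 1.85] in leukaemic marrow and 1.04 [0.694 to 1.56] in leukaemic spleen. The ratio was thus 3.17-fold higher in leukaemic marrow than in normal marrow (log2 1.67, 1.07 to 2.26) and 2.08-fold lower in leukaemic spleen than in normal spleen (log2 -1.06, -1.71 to -0.40).

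**Figure D3:**
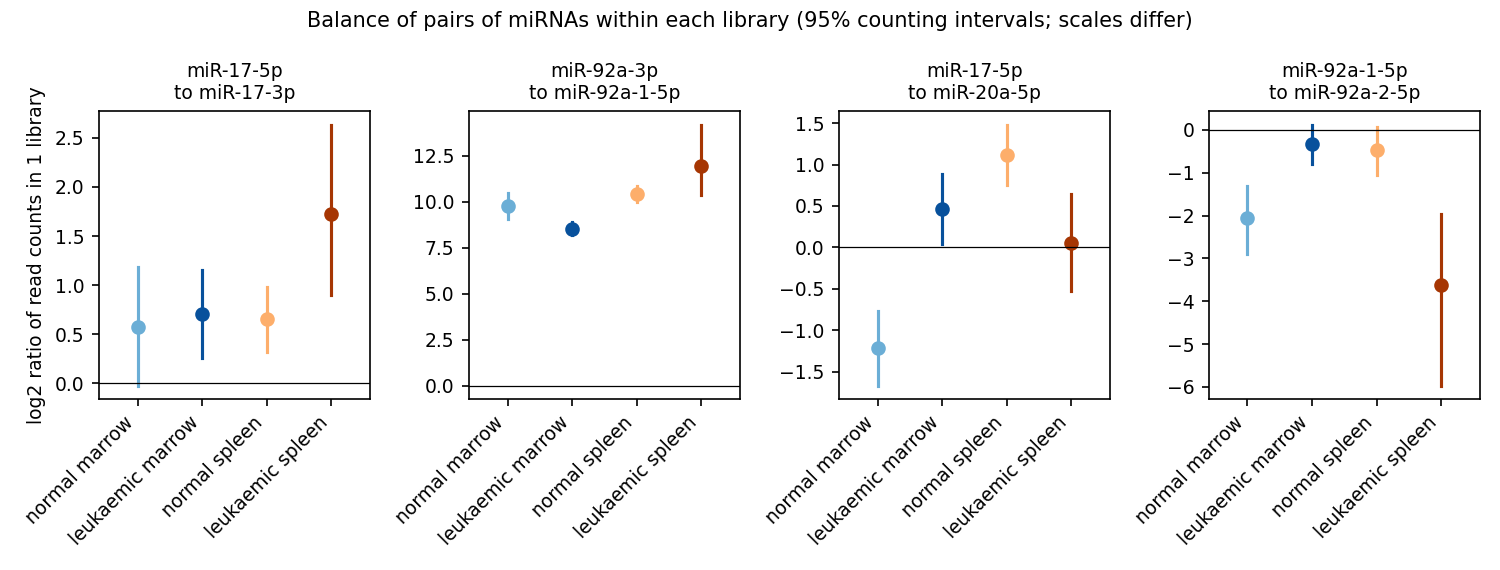
log2 ratio of the read counts of 2 miRNAs within each library, with 95% exact intervals, for the arms of miR-17, the arms of miR-92a-1, the pair with the miR-17 seed, and the 5p arms of the 2 miR-92a loci; the vertical scales differ. The ratio of miR-17-5p to miR-20a-5p is lowest in normal marrow and highest in normal spleen, with both leukaemic libraries between.

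The cluster shares its seeds with paralogs that the miR-106b cluster on chromosome 5 and the miR-106a cluster on chromosome X encode. Of 23 listed paralogs and remaining arms 18 were in the table. In leukaemic marrow against normal marrow none of the 8 compared was called in either direction, where 25.5% of all miRNAs compared were, and their median log2 ratio was 0.42. In leukaemic spleen against normal spleen 5 of 9 were lower, 4 were neither and none was higher, with a median of -1.16, where 21.3% of all miRNAs compared were lower and 46.3% differed in either direction. Those lower were miR-106b-3p, miR-25-3p, miR-25-5p, miR-20b-5p and miR-363-3p, with log2 ratios between -1.16 and -1.93. Of these, miR-20b-5p (4 counts in leukaemic and 31 in normal spleen) and miR-363-3p (8 and 48) passed the count minimum through normal spleen alone. So did miR-92b-3p (20 and 65), which was neither. The counts and medians over the paralogs compared are therefore descriptions only, as for the members.

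For the miR-92 seed miR-92a-3p was the main source, from chromosome 14 or chromosome X. Of the 5 rows with this seed, miR-92a-3p held between 95.5% and 96.7% of the reads in each library, followed by miR-25-3p, shown here for its close sequence, with between 3.14% and 4.08%.
miR-25-3p: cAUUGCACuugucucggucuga

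For the miR-17 seed the cluster's share of the reads was largest in normal marrow, at 202 of 387 counts, a share given without an interval. Of the 6 rows with this seed, miR-17-5p and miR-20a-5p together held 52.2% of the reads in normal marrow, 38.0% in leukaemic marrow, 26.5% in leukaemic spleen and 22.5% in normal spleen. The largest other source was miR-93-5p of the miR-106b cluster, at 733 CPM in normal marrow, 2331 CPM in normal spleen, 942 CPM in leukaemic marrow and 1249 CPM in leukaemic spleen.
miR-93-5p: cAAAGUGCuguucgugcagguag
The sum over the 6 rows was 1866 CPM in normal marrow and 1851 CPM in leukaemic marrow, a log2 ratio of -0.01 [-0.20 to 0.18]. In the spleen it was 3339 CPM in normal and 2032 CPM in AML macrophages, a log2 ratio of -0.72 [-0.88 to -0.55]. Thus the lower miR-20a-5p of leukaemic marrow stood beside a seed total with a ratio near 1. Of the other rows with this seed that were compared there, none was called: the log2 ratio was 0.47 for miR-17-5p, 0.36 [0.07 to 0.66] for miR-93-5p and 0.56 [-0.20 to 1.37] for miR-106b-5p, the last with an interval that includes equality.

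**Figure D4:**
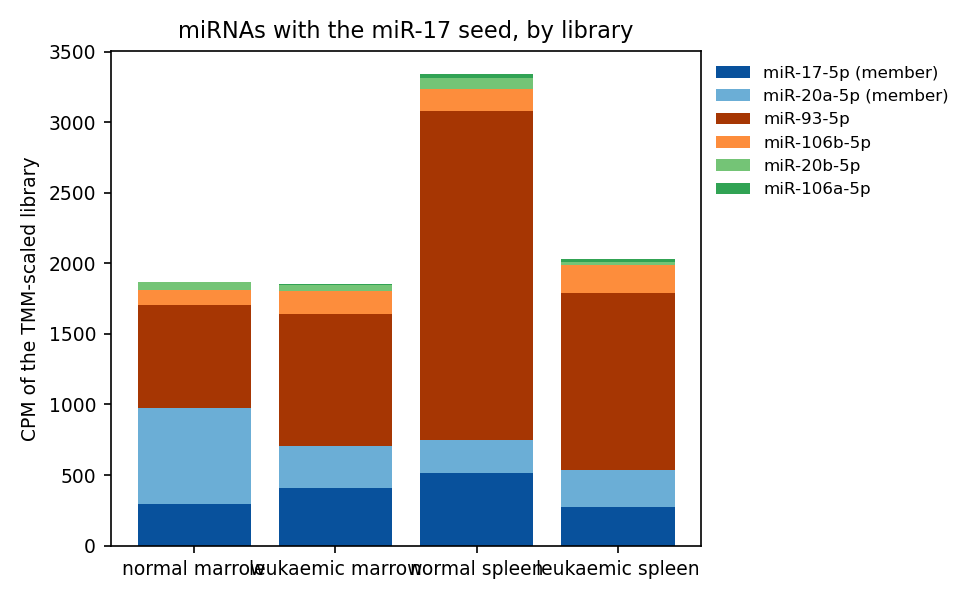
CPM of the 6 miRNAs with the miR-17 seed, stacked, in each library; the cluster's members are in blue. The stack reaches 3339 CPM in normal spleen and between 1851 and 2032 CPM in the other libraries, and miR-20a-5p is the thickest of the blue parts in normal marrow only.

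The arms opposite miR-92a-3p differ between its loci, so they separate chromosome 14 (miR-92a-1-5p) from chromosome X (miR-92a-2-5p). This pair was chosen after its values were seen.
miR-92a-2-5p: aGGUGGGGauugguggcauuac
There were 18 counts of the chromosome 14 arm to 75 of the chromosome X arm in normal marrow, a ratio of 0.240 [0.135 to 0.406]. The ratio was 0.716 [0.484 to 1.05] in normal spleen, from 48 and 67 counts, and 0.791 [0.573 to 1.09] in leukaemic marrow, from 72 and 91. It was 0.0811 [0.0160 to 0.256] in leukaemic spleen, from 3 and 37. The chromosome X arm itself showed no 2-fold AML difference, with log2 ratios of -0.16 [-0.61 to 0.30] in the marrow and 0.17 [-0.45 to 0.77] in the spleen. Between the marrow libraries the ratio of these 2 arms differed by 1.72 on the log2 scale (95% Wald interval 0.86 to 2.59), and between the spleen libraries the intervals of the ratios did not overlap. Over all rows found at 1 locus only, the chromosome 14 cluster had 281, 577, 384 and 130 counts and the chromosome X cluster 133, 173, 165 and 55 in normal marrow, normal spleen, leukaemic marrow and leukaemic spleen. The ratios were 2.11 [1.71 to 2.62], 3.34 [2.81 to 3.98], 2.33 [1.93 to 2.81] and 2.36 [1.71 to 3.30]. From normal to leukaemic libraries these ratios moved in the direction of that of the 2 arms, which are among these rows, but by less. The intervals of the marrow libraries overlapped, as did those of the spleen libraries, which does not show that a difference is absent.

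By the root mean square difference of centred log2 levels over the 4 libraries, the rows most like miR-92a-3p among 141 non-members with at least 30 counts everywhere were miR-25-3p (0.147), miR-106b-3p (0.166) and miR-425-5p (0.167). Those most like miR-17-5p were miR-221-3p (0.0656), miR-25-3p (0.0962) and miR-1964-3p (0.169). For the summed members they were miR-25-3p, miR-106b-3p and miR-221-3p. The paralogous cluster on chromosome 5 thus gave 2 of the 3 nearest rows to miR-92a-3p.

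Markers of cell types also differed between these libraries. No miRNA marks macrophages alone. All 4 rows listed as myeloid (both arms of miR-223 and of miR-142a) were detected in every library. Their summed level was 723 CPM in normal marrow, 1797 CPM in leukaemic marrow, 7179 CPM in normal spleen and 2488 CPM in leukaemic spleen. The miR-142a arms carried this sum in the spleen libraries, so there it mostly reports miR-142a and not miR-223. The arm miR-223-5p ran another way, at 203 CPM in normal marrow, 531 CPM in leukaemic marrow, 91.8 CPM in normal spleen and 51.8 CPM in leukaemic spleen, and the classical myeloid arm miR-223-3p had 4 to 28 counts. All 6 lymphocyte rows (miR-150, miR-181 and miR-342 arms) were detected in every library and summed to 18228 CPM in normal marrow, 43765 CPM in leukaemic marrow, 108681 CPM in normal spleen and 50068 CPM in leukaemic spleen. This sum, like the myeloid sum and miR-92a-3p, was higher in leukaemic marrow than in normal marrow and lower in leukaemic spleen than in normal spleen. Unlike miR-92a-3p, which on TMM factors was lowest in leukaemic spleen, each sum was higher there than in either marrow library. The lymphocyte sum was mostly miR-181a-5p, and not every row followed it. In the marrow 2 of 6 rows were called higher and 4 were neither, and in the spleen 4 were lower and 2 were neither. The levels of miR-150-3p were 400 CPM in normal marrow and 353 CPM in leukaemic marrow, 1892 CPM in normal spleen and 2493 CPM in leukaemic spleen, and those of miR-342-5p 2102, 2011, 2752 and 3794 CPM in that order. For miR-342-3p the marrow levels were 154 and 121 CPM.

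The summed levels of the muscle, stromal and endothelial, and erythroid lists ran the other way, and all rows did so only for muscle. The 3 muscle rows (miR-1a-3p, miR-133a-3p and miR-206-3p) summed to 35530 CPM in normal marrow, 10464 CPM in leukaemic marrow, 2306 CPM in normal spleen and 12222 CPM in leukaemic spleen. The 7 stromal and endothelial rows summed to 31846, 22168, 3622 and 22033 CPM in the same order, and the 3 erythroid rows to 5382, 1320, 548 and 1897 CPM. In leukaemic marrow against normal marrow 3 of 3 muscle rows were lower, but 1 of 7 stromal and endothelial rows, with 6 neither, and miR-126a-5p stood at 428 CPM in leukaemic marrow and 328 CPM in normal marrow. In the erythroid list, which miR-451a dominates, miR-144-3p had 130 CPM in normal marrow, 128 CPM in leukaemic marrow, 63.8 CPM in normal spleen and 10.4 CPM in leukaemic spleen. The highest and the lowest library of these 3 sums, normal marrow and normal spleen, were also those of miR-20a-5p, whose lowest library was not resolved from the next. The 3 leukaemic blast and progenitor rows summed to 31889, 23634, 5450 and 20043 CPM in the same order, mostly miR-10a-5p. Of them miR-196b-5p had 80 counts in normal marrow, 34 in normal spleen, 196 in leukaemic marrow and 5 in leukaemic spleen. Like miR-92a-1-5p it was highest in leukaemic marrow and lowest in leukaemic spleen. The same held for miR-223-5p of the myeloid list and for the paralog arm miR-25-5p, so this trait is not particular to a blast marker. The other rows of the blast and progenitor list, miR-10a-5p and miR-196a-5p, did not share this order and were highest in normal marrow and lowest in normal spleen. For miR-196a-5p the levels were 101 CPM in normal marrow, 85.6 CPM in leukaemic marrow, 17.9 CPM in normal spleen and 98.5 CPM in leukaemic spleen. All rows of these lists had counts in every library, and their part in the members' differences was not tested.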

How the data were processed

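Macrophages from 4 groups gave 1 small RNA library each. Total RNA was extracted with an RNeasy kit, per the labels' protocols. The aligner, counter, build and annotation are not given in the sources used. Per the file headers, the table holds read counts for each miRNA. The deposited TPM columns equal the count divided by the library total times 1000000, and were not analysed further. Libraries were scaled with TMM factors (edgeR 4.0.16, R 4.3.3), with DESeq2 1.42.0 size factors as an alternative. A miRNA was called different at 2-fold or more, with a 95% exact conditional (Clopper-Pearson) interval that excluded equality and at least 30 counts in the larger library. A count of 0 entered as 3 counts. Wald intervals of differences between log2 ratios required at least 10 counts in each. The reads carry no molecular identifiers in the file used. The interval code was checked on simulated counts. All 9 members are named, paralogs and marker rows come from set lists, and likeness names the 3 nearest rows. The members and lists were chosen with earlier results of these data known.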

Additional observations from a re-analysis of the deposited data

Results flagged for a closer look

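In 3 members the AML ratio ran in opposite directions in the 2 tissues, each with an interval that excluded equality, and the difference between the tissues was not tested because each group has 1 library. For miR-92a-3p, higher in leukaemic marrow and lower in leukaemic spleen, the log2 ratio of the spleen minus that of the marrow was -1.81. For miR-17-5p this gap was -1.37, from a marrow ratio whose interval began at 0.01. For miR-92a-1-5p it was -4.54, from 72 and 18 counts in the marrow and 3 and 48 in the spleen.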

How the results depend on the processing

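Of 136 member log2 ratios recomputed under 4 other scalings, 121 stayed within their counting interval, 15 moved beyond it, all of miR-92a-3p, and no called ratio changed sign. Every log2 ratio of leukaemic spleen against normal spleen shifted by -0.24 with DESeq2 size factors and by 0.25 on total counts, and those of normal spleen against normal marrow by 0.24 and -0.16. The gap of miR-92a-3p between the tissues was -2.08 with DESeq2 size factors, -1.60 on total counts and -1.92 with the 10 most abundant miRNAs left out of the totals. On total counts 1 member was higher in normal spleen than in normal marrow, since miR-92a-3p fell just under 2-fold, and with DESeq2 size factors 3 were, since miR-17-5p passed it at 1.04. With a minimum of 10 counts, and with none, 2 members were higher in leukaemic marrow (miR-19a-3p was added), 2 lower in normal spleen than in normal marrow (miR-19b-3p was added) and 4 lower in leukaemic spleen than in leukaemic marrow (miR-19a-3p was added). With a minimum of 100 counts, which leaves fewer members compared, 0 were higher in leukaemic marrow, 2 lower in leukaemic spleen than in normal spleen, 1 higher in normal spleen than in normal marrow and 0 lower in leukaemic spleen than in leukaemic marrow. At 1.5-fold, 4 were higher in normal spleen than in normal marrow. Balances within a library do not depend on the scaling, and neither does the likeness of patterns, by construction. The nearest rows were the same with at least 100 counts everywhere. No library could be left out, since each is the only one of its group. No paired analysis was possible because each group has 1 library. Depth limits the sparse members: miR-18a-5p, miR-19a-3p and miR-19b-3p were compared nowhere.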

Other observations

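Patterns of the members that stood apart from miR-92a-3p were set beside the other rows after their values were seen. The rows most like miR-20a-5p among 141 were miR-16-5p, with a root mean square difference of 0.221 on the log2 scale, miR-148b-3p (0.258) and miR-183-5p (0.339). For miR-16-5p, of a family that restrains the cell cycle, levels were 665 CPM in normal marrow, 355 CPM in normal spleen, 385 CPM in leukaemic marrow and 321 CPM in leukaemic spleen, so like miR-20a-5p it was highest in normal marrow.

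The row most like miR-92a-1-5p among 229 with at least 3 counts everywhere and 30 in some library was miR-181d-5p (0.373), with 174 counts in normal marrow, 405 in normal spleen, 371 in leukaemic marrow and 29 in leukaemic spleen. The next were miR-7658-5p (0.735) and miR-130b-5p (0.777), at a greater distance.

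The arm balances of the chromosome 5 cluster were also taken up after values were seen. Among the arms of the miR-106b hairpin on chromosome 5, the balance moved toward the 5p arm in leukaemic spleen, as it did for miR-17. The ratio of miR-106b-5p to miR-106b-3p was 0.0635 [0.0482 to 0.0824] in normal spleen and 0.207 [0.143 to 0.294] in leukaemic spleen, and the difference was 1.71 on the log2 scale (1.08 to 2.33). For the miR-25 hairpin the ratio of the 3p to the 5p arm was 3.13 in normal spleen and 3.59 in leukaemic spleen, a difference of 0.20 (-0.11 to 0.51) that counting error can cover. Other pairs of libraries differed in this balance. It was higher in the spleen than in the marrow, by 0.60 (0.36 to 0.83) in normal and 1.09 (0.78 to 1.41) in leukaemic libraries. Leukaemic marrow differed from normal marrow by -0.30 (-0.54 to -0.05).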
